A study of Homo sapiens with 9 samples.

Results

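Direct target genes of the transcriptional co-activators YAP and TAZ were followed in hTERT_RPE1 cells, a telomerase-immortalised line derived from human retinal pigment epithelium. The set was fixed by name and held 10 genes, CTGF (also CCN2), CYR61 (also CCN1), ANKRD1, AMOTL2, AXL, DAB2, AJUBA, F3, NT5E and CRIM1, out of 26475 genes in the table. Each of the 10 was found in the table and each passed the filter on low counts, as did 13784 genes in all. The study asked how cells respond to a soft substrate and to loss of PIP4K2B, a lipid kinase that phosphorylates the phosphoinositide PtdIns5P, and it sequenced poly(A) RNA from 9 libraries, 3 per condition.

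Control cells carried an empty pLKO vector and were grown on fibronectin-coated glass. The sh_PIP4K2B cells were grown on the same coated glass and were transduced with a short hairpin RNA against PIP4K2B, and the 3 libraries of this condition came from 3 different hairpins, #1, #2 and #3. Soft cells carried the empty vector too and were grown on a fibronectin-coated hydrogel of 2.3 kPa. All cells were collected 24 h after seeding. The titles number the empty vector pLKO_1, pLKO_2 and pLKO_3 over the libraries of Control and again of Soft, and whether the number marks a vector, a transduction or a replicate is not stated. They call this vector empty while the treatment label calls it a control shRNA, so whether those cells expressed a hairpin was not settled here. Nothing states that libraries of a condition came from separate cultures, so the p-values measure the spread between these libraries, which may be technical in Control and Soft and includes the choice of hairpin in sh_PIP4K2B.

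YAP and TAZ do not bind DNA themselves. In the nucleus they pair with TEAD transcription factors, which recognise a short DNA motif, and the kinases of the Hippo pathway (MST1/2 and LATS1/2) keep them in the cytoplasm by phosphorylation. In cells that adhere and spread on a rigid surface YAP and TAZ are typically nuclear, and on a compliant surface they are typically retained in the cytoplasm, which is why their target genes are widely used as a readout of mechanical input.

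Sequences before the start sites are shown first because YAP and TAZ reach DNA through partners such as TEAD. Whether TEAD bound at these genes was not measured. Promoter windows came from RefSeq (GRCh38.p14, 250 bases before to 50 after a start site). A window whose start matched that of the canonical transcript was found for 8 of the 10 genes, but not for CYR61 and CRIM1. The 3 motifs below were searched on both strands: the TEAD motif GGAATG, which reads CATTCC where it lies on the opposite strand, the AP-1 motif TGANTCA and the CArG box of serum response factor. The stretches that hold the matches are printed 5′ to 3′ on the strand of the gene, with the matched letters in capitals.
CTGF, chr6:131951447-131951556, minus strand: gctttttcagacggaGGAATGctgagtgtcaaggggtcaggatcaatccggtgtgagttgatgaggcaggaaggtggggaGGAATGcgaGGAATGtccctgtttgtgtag
ANKRD1, chr10:90921195-90921322, minus strand: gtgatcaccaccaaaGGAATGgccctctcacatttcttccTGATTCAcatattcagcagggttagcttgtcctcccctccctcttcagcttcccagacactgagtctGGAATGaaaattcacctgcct
AMOTL2, chr3:134374496-134374531, minus strand: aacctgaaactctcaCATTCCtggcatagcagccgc
DAB2, chr5:39424981-39425006, minus strand: aaaaacatcctggcaCATTCCtgggg
F3, chr1:94541948-94541997, minus strand: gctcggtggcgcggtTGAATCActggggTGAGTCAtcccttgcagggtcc

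The CTGF window held 3 TEAD matches, which began 169, 104 and 95 bases before the start site. In ANKRD1 there were 2 TEAD matches, at 220 and 128 bases before the start, and 1 AP-1 match between them at 195 bases. AMOTL2 and DAB2 each held 1 TEAD match on the opposite strand, 69 and 11 bases before the start, and F3 held 2 AP-1 matches at 223 and 210 bases before the start and no TEAD match. AXL, AJUBA and NT5E held none of the 3 motifs in this window, and no member held a CArG box. Over all 35116 RefSeq windows, 14.0% held a TEAD match, 1.37% held at least 2 and 0.128% at least 3, while 7.71% held an AP-1 match and 1.29% a CArG box. The start meant here is that of the canonical transcript, and in DAB2, AMOTL2 and NT5E it lies 37320, 1032 and 499 bases inside the annotated gene, whose outermost transcripts begin further upstream. A match is a description of the letters and not a measured binding site.

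**Figure D1:**
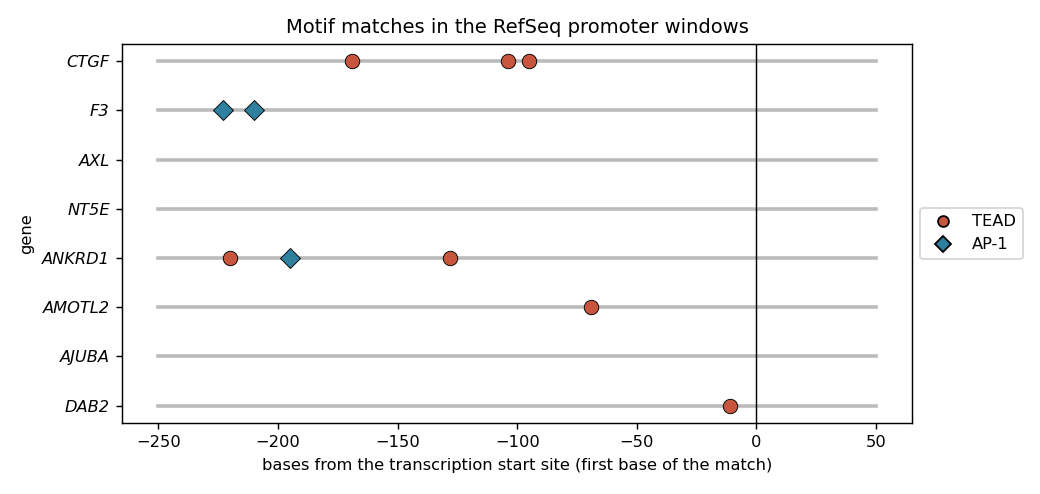
Positions of motif matches in the promoter windows of the 8 genes that had one, in bases from the transcription start site (vertical line), with circles for TEAD and diamonds for AP-1. CTGF has 3 TEAD matches, ANKRD1 has 2 TEAD matches and 1 AP-1 match, AMOTL2 and DAB2 have 1 TEAD match each, F3 has 2 AP-1 matches, and AXL, NT5E and AJUBA have none.

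The libraries held between 19217346 and 24020799 estimated counts, and the member with fewest counts, AJUBA, still averaged 2824 of them in its highest condition, so counting error was small beside the spread between hairpins. PIP4K2B itself was measured at 123, 124 and 120 CPM (the read count scaled to a common library size after TMM normalisation) in Control, at 48.4, 40.9 and 36.6 CPM with hairpins #1, #2 and #3, and at 119, 122 and 127 CPM in Soft. It fell by 1.54 ± 0.12 on the log2 scale in sh_PIP4K2B (edgeR adjusted p = 3.80e-04, and 0.0122 with only the 2 conditions fitted). The knockdown libraries thus retained 30.0% to 39.6% of the Control level of the targeted RNA, and the Soft libraries did not lie apart from Control. Retinal pigment epithelium markers were mostly absent: 6 of 8 (RPE65, RLBP1, BEST1, TTR, PMEL and TYR) stayed under 1 CPM in all 9 libraries. OTX2 lay between 10.3 and 11.7 CPM in Control, 15.8 and 19.6 CPM over the hairpins and 34.8 and 39.4 CPM in Soft, and MITF between 34.3 and 39.3, 24.4 and 37.9, and 25.9 and 26.4 CPM, so that the 8 summed to 45.7 to 51.5 CPM in Control, 40.9 to 58.2 CPM over the hairpins and 62.2 to 67.3 CPM in Soft. The leukocyte marker PTPRC also stayed under 1 CPM. Summed epithelial markers (KRT8 and KRT18 were the only abundant ones of 5) ranged over the Control libraries from 1921 to 2073 CPM, over the hairpins from 708 to 1122 CPM and over the Soft libraries from 892 to 943 CPM. The 6 mesenchymal markers summed to 9271 to 9375 CPM in Control, 4428 to 8549 CPM over the hairpins and 6804 to 7105 CPM in Soft, with members that went opposite ways in Soft: VIM was at 5952 to 6266 CPM there against 8548 to 8633 CPM in Control, PDGFRB at 191 to 196 CPM against 27.3 to 28.1 CPM, and DCN at 22.3 to 29.5 CPM against 2.37 to 2.84 CPM. The part of these marker shifts in the results that follow was not tested.

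Of the 10 targets, 7 were called lower in cells on the soft gel and none higher, whereas with PIP4K2B silenced none was called lower and 1, AJUBA, higher. The 7 genes lower in Soft were ANKRD1, CTGF, F3, DAB2, CYR61, AMOTL2 and CRIM1. A call here is an adjusted p below 0.01 in edgeR's quasi-likelihood test, with adjustment over all 13784 genes tested. Of all genes tested 14.8% were called lower and 15.8% higher in Soft, against 2.77% lower and 2.76% higher in sh_PIP4K2B. At an unadjusted p below 0.05 there were 3 lower targets and 1 higher in sh_PIP4K2B, beside 14.2% and 19% of all genes, and 8 lower and 0 higher in Soft, beside 26.6% and 27.7%. DESeq2 called 2 lower and 1 higher in sh_PIP4K2B, beside 6.48% and 6.98% of all genes, and 7 lower and 0 higher in Soft, beside 17.3% and 17%. The median log2 fold change of the 10 was -1.65 in Soft, beside 0.01 over all genes, and -0.29 in sh_PIP4K2B, beside 0.05 over all genes. Both comparisons use the same 3 Control libraries. A lower level in a culture can reflect fewer cells that express a gene or less RNA in each cell, and these bulk libraries cannot tell the 2 apart.

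**Figure D2:**
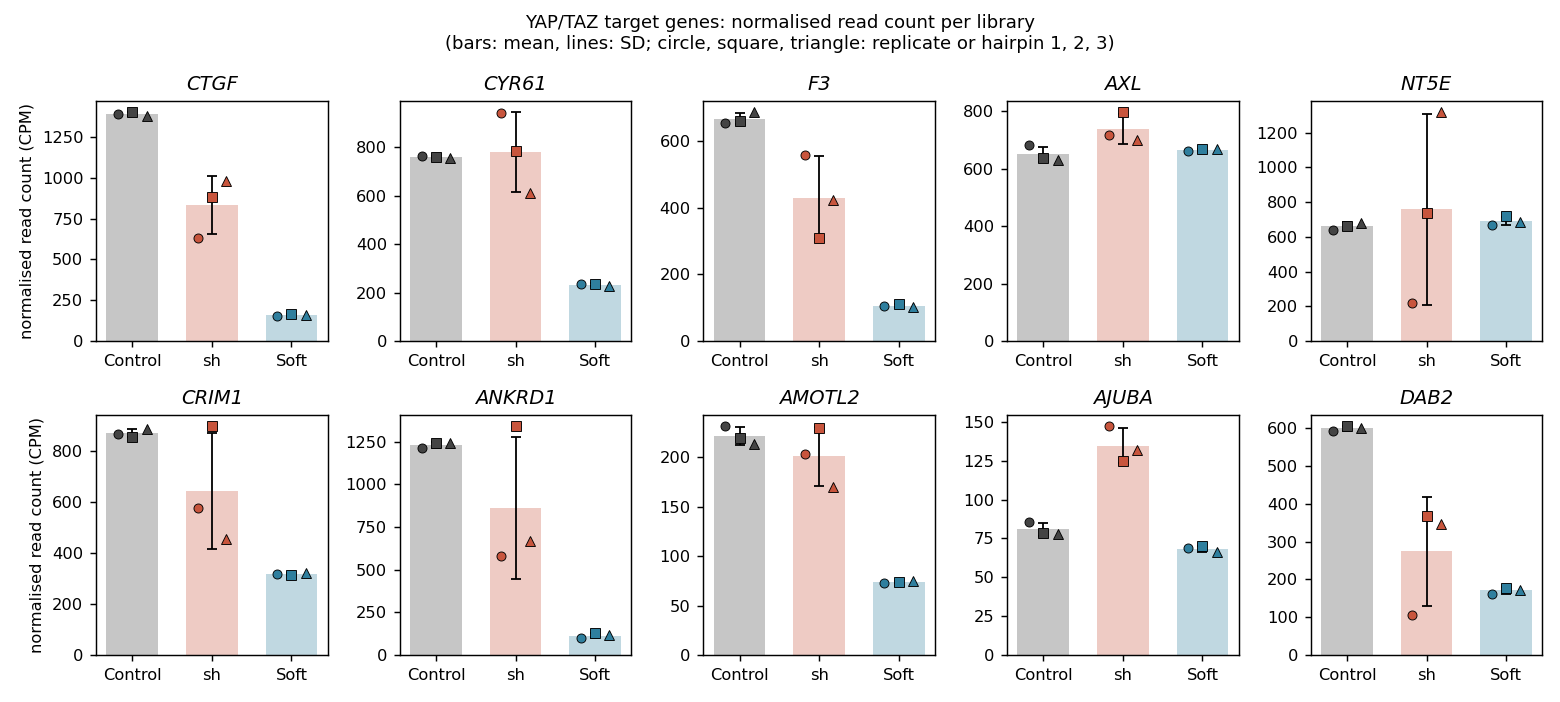
Normalised read count (CPM) of each of the 10 genes in Control, sh_PIP4K2B (sh) and Soft, with bars for the mean, lines for the SD over 3 libraries and a point per library (circle, square and triangle for replicate or hairpin 1, 2 and 3). In Soft the 3 points of CTGF lie between 153 and 165 CPM against 1381 to 1402 CPM in Control, while NT5E spreads from 217 to 1318 CPM over the 3 hairpins.

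The matricellular proteins CTGF and CYR61 belong to the CCN family, are secreted into the extracellular matrix and bind integrins, and they are the most widely used YAP targets. The gene for CTGF lies at chr6:131948176-131951372 (minus strand, GRCh38) and that for CYR61 at chr1:85580761-85584589 (plus strand). CTGF was at 1391, 1402 and 1381 CPM in Control, 634, 884 and 979 CPM with hairpins #1, #2 and #3, and 153, 165 and 163 CPM in Soft. The 3 conditions did not overlap, with Soft lowest and the knockdown in between. In Soft, CTGF fell by 3.11 ± 0.17 (SE) on the log2 scale (edgeR adjusted p = 4.93e-06), to 11.03% to 11.9% of the Control mean. With PIP4K2B silenced its log2 fold change was -0.74 ± 0.16 and did not pass the threshold (edgeR adjusted p = 0.0138). That value passed when hairpin #1 was left out (-0.58, edgeR adjusted p = 0.00189), when hairpin #3 was left out (-0.88, edgeR adjusted p = 0.00384) and in DESeq2 (-0.76, adjusted p = 3.62e-05). In 14 of the 18 alternative settings, which are listed with the processing below, it did not pass.

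CYR61 behaved otherwise under silencing. It was at 762, 758 and 754 CPM in Control, 941, 786 and 611 CPM with hairpins #1, #2 and #3, and 234, 237 and 226 CPM in Soft. The hairpins bracketed the Control level, 2 above and 1 below, whereas the Soft libraries all lay far under it. CYR61 fell by 1.70 ± 0.16 on the log2 scale in Soft (edgeR adjusted p = 5.00e-05), and its log2 fold change in sh_PIP4K2B was 0.04 ± 0.15 (edgeR adjusted p = 0.88). Without hairpin #1 the latter was -0.12. Of the other CCN genes, NOV (CCN3) was measured and WISP1, WISP2 and WISP3 did not pass the filter on low counts. NOV was higher in Soft, at a mean of 42.1 ± 2.4 (SD) CPM against 19.6 ± 0.8 in Control (log2 fold change 1.10 ± 0.23, edgeR adjusted p = 0.00373), the opposite direction to CTGF and CYR61, but this call was lost when any 1 Control or Soft library was left out (edgeR adjusted p from 0.0116 to 0.0191). With only Control and Soft fitted it was kept.

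ANKRD1 encodes a cardiac ankyrin repeat protein, found in the nucleus and at the sarcomere, that is induced by stretch in muscle and is a sensitive YAP target in many cell types. The gene (chr10:90912096-90921087, minus strand) had the highest level per kb of transcript of the 10 in Control. It was at 1213, 1241 and 1244 CPM in Control, 580, 1342 and 668 CPM with hairpins #1, #2 and #3, and 98.9, 127 and 115 CPM in Soft. Hairpins #1 and #3 lay well under Control, hairpin #2 lay above every Control library, and all Soft libraries lay under all others. In Soft ANKRD1 fell by 3.44 ± 0.30 on the log2 scale (edgeR adjusted p = 4.36e-05), to 8.03% to 10.3% of what Control held. In sh_PIP4K2B the log2 fold change was -0.51 ± 0.28 (edgeR adjusted p = 0.229), and it became -0.98 and passed the threshold without hairpin #2 (edgeR adjusted p = 0.00136). ANKRD1 did not pass there in the other 17 of 18 alternative settings, and its value ranged from -0.98 to -0.30 when 1 library was left out. Its relatives ANKRD2 and ANKRD23 gave no call, ANKRD2 because it did not pass the filter.

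Among genes for membrane proteins, F3 encodes tissue factor, the receptor for coagulation factor VII that starts blood clotting (chr1:94529173-94541759, minus strand). F3 was at 656, 662 and 687 CPM in Control, 559, 310 and 424 CPM with hairpins #1, #2 and #3, and 105, 112 and 103 CPM in Soft. Every hairpin lay under every Control library and every Soft library lay under every hairpin. F3 fell by 2.65 ± 0.20 on the log2 scale in Soft (edgeR adjusted p = 1.74e-05). In sh_PIP4K2B its log2 fold change was -0.63 ± 0.19 (edgeR adjusted p = 0.0456), which did not pass the threshold, and without hairpin #1 it was -0.87 and passed (edgeR adjusted p = 0.00265). It did not pass in 16 of the 18 alternative settings, and ranged from -0.87 to -0.44 when 1 library was left out.

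CRIM1 encodes a transmembrane protein with cysteine-rich repeats that binds bone morphogenetic proteins (chr2:36355778-36551135, plus strand). It was at 864, 856 and 886 CPM in Control, 576, 897 and 454 CPM with hairpins #1, #2 and #3, and 317, 312 and 323 CPM in Soft. Hairpin #2 lay just above Control, the other hairpins below it, and Soft below all. CRIM1 fell by 1.45 ± 0.22 on the log2 scale in Soft (edgeR adjusted p = 6.33e-04), and its log2 fold change in sh_PIP4K2B was -0.44 ± 0.21 (edgeR adjusted p = 0.187). Without hairpin #2 this was -0.76 and passed the threshold (edgeR adjusted p = 0.00231). It did not pass in the other 17 of 18 alternative settings, and ranged from -0.76 to -0.24 when 1 library was left out. BMP4, a ligand of the family that CRIM1 binds, was higher in Soft at 43.6 ± 1.4 CPM against 21.5 ± 0.5 CPM in Control (log2 fold change 1.02 ± 0.22, edgeR adjusted p = 0.00406), a call that was lost when any 1 Control or Soft library was left out (edgeR adjusted p from 0.0146 to 0.0207). The BMP4 call was kept with only Control and Soft fitted.

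AXL and NT5E did not follow the other targets in Soft. AXL encodes a receptor tyrosine kinase whose ligand is GAS6 (chr19:41219223-41261766, plus strand). It was at 681, 639 and 632 CPM in Control, 717, 797 and 700 CPM with hairpins #1, #2 and #3, and 663, 667 and 667 CPM in Soft. The Soft libraries lay within the Control range and the hairpins lay slightly above it. Its log2 fold change was 0.03 ± 0.11 in Soft (edgeR adjusted p = 0.815) and 0.18 ± 0.11 in sh_PIP4K2B (edgeR adjusted p = 0.264).

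The ligand GAS6 moved where its receptor did not. Its level was 737 ± 34.2 (SD) CPM on glass with the empty vector, 482 ± 49.3 CPM over the hairpins and 390 ± 12.1 CPM on the gel, and it fell by 0.92 ± 0.11 on the log2 scale in Soft (edgeR adjusted p = 2.29e-04). In sh_PIP4K2B, GAS6 had a log2 fold change of -0.61 ± 0.11 (edgeR adjusted p = 0.0079) and TYRO3, a receptor of the same family as AXL, one of -0.66 ± 0.13 (edgeR adjusted p = 0.00942). These GAS6 and TYRO3 calls in sh_PIP4K2B were each lost when any 1 Control or Soft library was left out, with edgeR adjusted p from 0.0218 to 0.0483 for GAS6 and from 0.021 to 0.0511 for TYRO3, with no filter on low counts (0.0111 and 0.0108) and with only the 2 conditions fitted (0.0621 and 0.0546), and that of TYRO3 also with library size scaling (0.0351). The third receptor of the family, MERTK, gave no call.

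NT5E encodes CD73, a surface enzyme that turns extracellular AMP into adenosine (chr6:85449584-85495791, plus strand). It was at 642, 664 and 683 CPM in Control, 217, 740 and 1318 CPM with hairpins #1, #2 and #3, and 671, 720 and 687 CPM in Soft. Hairpin #1 lay at 32.7% of the Control mean and hairpin #3 at 199%, the widest spread of any member, while Soft and Control overlapped. The log2 fold change was 0.06 ± 0.47 in Soft (edgeR adjusted p = 0.924) and 0.19 ± 0.47 in sh_PIP4K2B (edgeR adjusted p = 0.808), and without hairpin #3 the latter was -0.47. The fit used 1 estimate of the spread for the 3 conditions, hairpins included, so the SE of NT5E in Soft is not that of the Control and Soft libraries alone.

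AMOTL2 and AJUBA encode proteins that act back on YAP. Angiomotin-like 2 binds YAP at junctions and actin, and AJUBA is a LIM domain protein that binds LATS kinases and restrains them. AMOTL2 (chr3:134355347-134375479, minus strand) was at 232, 220 and 214 CPM in Control, 204, 229 and 170 CPM with hairpins #1, #2 and #3, and 72.5, 74.1 and 75.2 CPM in Soft. The hairpins overlapped Control and the Soft libraries lay close together below all others. In Soft AMOTL2 fell by 1.59 ± 0.12 on the log2 scale (edgeR adjusted p = 2.10e-05), and the log2 fold change in sh_PIP4K2B was -0.14 ± 0.12 (edgeR adjusted p = 0.44). Of the 75-base stretches of its transcript 2.36% were shared with other genes, chiefly RPL39P5, while the other 9 members shared none. AMOT and AMOTL1, the other angiomotins, gave no call in either comparison.

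AJUBA (chr14:22971177-22982551, minus strand) was the one target called higher with PIP4K2B silenced. It was at 85.8, 78.7 and 77.9 CPM in Control, 147, 125 and 132 CPM with hairpins #1, #2 and #3, and 68.7, 70.3 and 66.5 CPM in Soft. All hairpins lay above all Control libraries and all Soft libraries lay slightly below them. AJUBA rose by a log2 fold change of 0.74 ± 0.10 in sh_PIP4K2B (edgeR adjusted p = 0.00183), and in Soft the fitted value was -0.24 ± 0.10 (edgeR adjusted p = 0.0742). The call in sh_PIP4K2B was lost when any 1 Control library was left out (log2 fold change 0.71 to 0.78, edgeR adjusted p from 0.0122 to 0.0199) and when only the 2 conditions compared were fitted (edgeR adjusted p = 0.0284), and in DESeq2 it was kept (0.73, adjusted p = 1.36e-09). With only those 2 conditions fitted, the Soft difference of AJUBA did pass (-0.24, edgeR adjusted p = 2.84e-04). Its relatives LIMD1 and WTIP gave no call.

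DAB2 encodes an adaptor that links receptors to clathrin for endocytosis (chr5:39371675-39462300, minus strand). It was at 593, 606 and 601 CPM in Control, 107, 369 and 346 CPM with hairpins #1, #2 and #3, and 162, 178 and 173 CPM in Soft. Hairpin #1 gave a lower level than any Soft library, and all hairpins lay below all Control libraries. DAB2 fell by 1.81 ± 0.37 on the log2 scale in Soft (edgeR adjusted p = 0.00345), although this call was lost when any 1 Control or Soft library was left out (log2 fold change -1.84 to -1.78, edgeR adjusted p from 0.0117 to 0.0177). These fits pooled the spread of all conditions, hairpins included, and the call was kept with only Control and Soft fitted. The log2 fold change of DAB2 in sh_PIP4K2B was -1.13 ± 0.36 (edgeR adjusted p = 0.0616). Without hairpin #1 that was -0.75 and passed the threshold (edgeR adjusted p = 5.53e-04), as it did in DESeq2 with all libraries (-1.15, adjusted p = 0.00909). It did not pass in the other 16 of 18 alternative settings, and ranged from -1.41 to -0.75 when 1 library was left out.

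Read by library rather than by gene, the 3 Soft libraries were close to one another and the 3 hairpins were not. The median over the 10 members of the log2 ratio to the Control mean was -1.65, -1.62 and -1.65 in the Soft libraries. In each of them 8 members lay under all Control libraries, beside 44.1%, 43.7% and 44.1% of all genes. With hairpins #1, #2 and #3 the members' median was -0.43, 0.05 and -0.45. There 7, 3 and 7 members lay under all Control libraries, beside 43.1%, 39.4% and 41.3% of all genes. Hairpin #2 was thus the hairpin with fewest members under Control, a count near that background. PIP4K2B itself was at 33.5% of the Control mean in it, between the other hairpins. The median SD of the members' log2 CPM was 0.03 in Control, 0.38 in sh_PIP4K2B and 0.05 in Soft, beside 0.08, 0.36 and 0.07 over all genes, so the wide spread between hairpins was shared by the table as a whole.

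**Figure D3:**
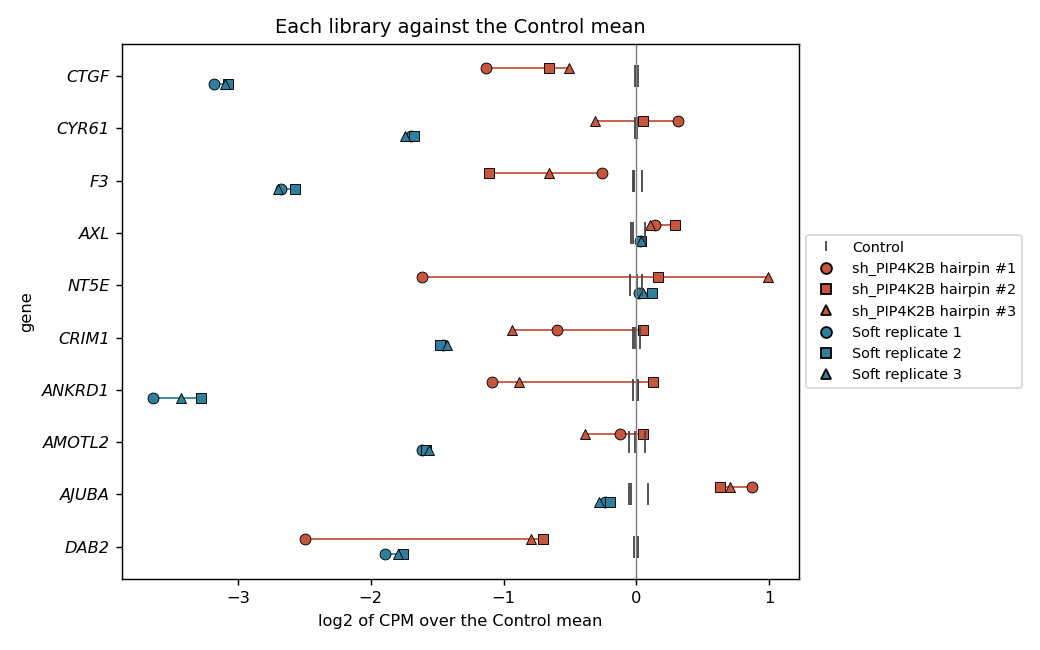
Log2 of each library's CPM over the Control mean for the 10 genes (rows), with grey ticks for the 3 Control libraries, red symbols for hairpins #1 to #3 and blue symbols for the Soft replicates. The blue symbols of each gene lie close together, from -3.64 for the lowest ANKRD1 library to 0.12 for the highest NT5E library, whereas the red symbols of NT5E reach from -1.61 to 0.99.

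Counted without a model, 8 of 10 members in Soft had all 3 libraries below all 3 Control libraries (the 7 called and AJUBA), beside 39.1% of all genes tested. In sh_PIP4K2B, 3 members (CTGF, DAB2 and F3) lay wholly below Control, beside 16.7% of all genes, and 2 (AXL and AJUBA) wholly above, beside 17.4%. For sh_PIP4K2B the members' shares were near enough to these backgrounds that nothing is read from them.

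The order of the members' levels was compared after dividing CPM by the length of the canonical transcript in kb, since CPM alone favours long transcripts. In Control the order from high to low was ANKRD1 (688 CPM per kb), CTGF (595), CYR61 (333), F3 (291), NT5E (186), CRIM1 (143), DAB2 (138), AXL (138), AMOTL2 (45.6) and AJUBA (19.4), and of the neighbours in this order only DAB2 and AXL overlapped. In Soft it was NT5E (194 CPM per kb), AXL (141), CYR61 (102), CTGF (68.7), ANKRD1 (63.4), CRIM1 (52.4), F3 (46.5), DAB2 (39.3), AJUBA (16.4) and AMOTL2 (15.2), with only CTGF and ANKRD1 overlapping as neighbours. ANKRD1 and CTGF, the most abundant members on glass, thus lay below NT5E, AXL and CYR61 on the gel. With the hairpins, ANKRD1 (482 ± 233 CPM per kb, SD), CTGF (356 ± 76.1) and CYR61 (342 ± 72.5) still had the highest means, but all neighbours overlapped except AXL and CRIM1.

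The responses to the gel and to silencing were compared directly, with the Soft libraries against the sh_PIP4K2B libraries in the same fit. In this comparison 7 members were lower in Soft, namely CTGF, CYR61, ANKRD1, AMOTL2, AJUBA, F3 and CRIM1, and 0 were higher, beside 15.5% of all genes called lower and 14.5% higher. DESeq2 gave counts of 7 and 0 too, beside 18.6% and 16.7% of all genes, and at an unadjusted p below 0.05 edgeR gave 7 and 0, beside 28.2% and 25.5%. All 10 members had a log2 fold change below 0, with a median of -1.23, beside 51.8% of all genes and a median of -0.03. The largest differences were those of ANKRD1 (-2.93 ± 0.30, edgeR adjusted p = 1.00e-04), CTGF (-2.37 ± 0.17, edgeR adjusted p = 1.80e-05) and F3 (-2.01 ± 0.19, edgeR adjusted p = 7.86e-05). CYR61 differed by -1.74 ± 0.16 (edgeR adjusted p = 5.43e-05) and AMOTL2 by -1.44 ± 0.12 (edgeR adjusted p = 4.27e-05). AJUBA differed by -0.98 ± 0.10 (edgeR adjusted p = 1.00e-04), with a level above Control in the knockdown and below it in Soft.

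For CRIM1 the direct difference was -1.02 ± 0.21 (edgeR adjusted p = 0.00417), and it no longer passed when any 1 Soft library was left out (edgeR adjusted p from 0.0188 to 0.0204) or when only these 2 conditions were fitted (edgeR adjusted p = 0.02). AXL (-0.15 ± 0.11, edgeR adjusted p = 0.276), NT5E (-0.13 ± 0.47, edgeR adjusted p = 0.839) and DAB2 (-0.68 ± 0.36, edgeR adjusted p = 0.151) did not pass. Without hairpin #1, the only hairpin below the Soft libraries, the DAB2 difference was -1.08 and passed (edgeR adjusted p = 1.94e-05). In the other 17 of 18 alternative settings it did not pass.

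**Figure D4:**
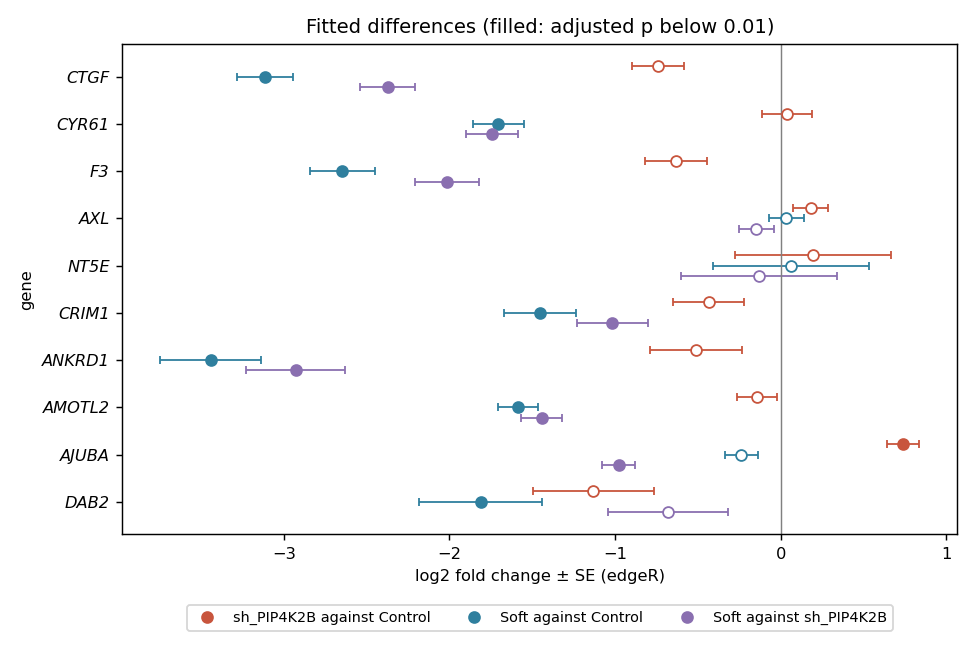
Fitted log2 fold changes with their SE for the 10 genes in 3 comparisons, sh_PIP4K2B against Control (red), Soft against Control (blue) and Soft against sh_PIP4K2B (purple), filled where the edgeR adjusted p was below 0.01. The blue and purple points lie well below 0 for ANKRD1, CTGF, F3, CYR61, AMOTL2 and CRIM1, and the only filled red point is AJUBA at 0.74.

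A widely used 22-gene YAP/TAZ signature holds 8 of the 10 members, all but DAB2 and AJUBA, and its other 14 genes all passed the filter. In Soft 9 of the 14 were lower and 0 higher, beside 14.8% and 15.8% of all genes, with a median log2 fold change of -1.02. At an unadjusted p below 0.05 the counts were 11 and 1, beside 26.6% and 27.7% of all genes, and DESeq2 called 10 and 0, beside 17.3% and 17%. FJX1, the human counterpart of a Drosophila planar polarity gene, fell by 2.15 ± 0.20 on the log2 scale (8.74 ± 0.35 CPM against 38.8 ± 1.7, edgeR adjusted p = 5.15e-05). GADD45A, a stress-induced growth arrest gene, fell by 1.97 ± 0.33 (33.5 ± 3.2 CPM against 131 ± 3.8, edgeR adjusted p = 0.00114). TGFB2, a ligand of the transforming growth factor family, fell by 1.73 ± 0.32 (103 ± 5.7 CPM against 341 ± 19.4, edgeR adjusted p = 0.00186), a call lost without Soft replicate 2 or 3 (edgeR adjusted p = 0.0113 and 0.0104) and kept with only Control and Soft fitted.

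In sh_PIP4K2B 1 of these 14 was lower and 1 higher, beside 2.77% and 2.76% of all genes, with a median of -0.08. IGFBP3, a secreted carrier of insulin-like growth factors, was at 365 ± 127 CPM against 2356 ± 7.7 CPM in Control (log2 fold change -2.69 ± 0.23, edgeR adjusted p = 4.97e-04), a call lost with only the 2 conditions fitted (edgeR adjusted p = 0.0151). NUAK2, a kinase that acts on actomyosin, was at 16.6 ± 4.9 CPM against 5.99 ± 0.82 (log2 fold change 1.47 ± 0.22, edgeR adjusted p = 0.00321), a call lost when any 1 Control library was left out (edgeR adjusted p from 0.0147 to 0.0248) or only the 2 conditions were fitted (0.025). The list has no p of its own here.

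Genes of the Hippo pathway itself, 20 in all and all above the filter, gave 9 lower and 3 higher in Soft with a median of -0.58. Of all genes 14.8% were lower and 15.8% higher, so the 3 higher of 20 lay near the background and nothing is read from their number. VGLL3, a TEAD cofactor, fell by 2.59 ± 0.63 on the log2 scale (10.02 ± 1.49 CPM against 60.1 ± 6.9, edgeR adjusted p = 0.00832), though this did not hold when any 1 Control or Soft library or hairpin #2 was left out (edgeR adjusted p from 0.0141 to 0.0363). The VGLL3 call did hold with only Control and Soft fitted. NF2, the tumour suppressor merlin that activates the pathway, fell by 1.74 ± 0.13 (56.5 ± 1.7 CPM against 189 ± 6.8, edgeR adjusted p = 1.98e-05). VGLL4, which competes with YAP for TEAD, rose by a log2 fold change of 2.06 ± 0.16 (205 ± 0.6 CPM against 49.1 ± 1.7, edgeR adjusted p = 1.80e-05). The other 2 that rose were WWTR1, which encodes TAZ (395 ± 3.9 CPM against 206 ± 9.0, log2 fold change 0.94 ± 0.18, edgeR adjusted p = 0.00226), and TEAD2 (78.8 ± 2.5 CPM against 25.9 ± 0.7, 1.61 ± 0.15, edgeR adjusted p = 5.15e-05). TEAD1, more abundant than TEAD2, was among the genes called lower (108 ± 6.8 CPM against 180 ± 6.4, -0.74 ± 0.12, edgeR adjusted p = 8.91e-04). These were named here after their values were seen, and YAP1, TEAD3 and TEAD4 gave no call. In sh_PIP4K2B 0 of the 20 were called in either direction by edgeR, with a median of 0.22; at an unadjusted p below 0.05 there were 1 lower and 5 higher, beside 14.2% and 19% of all genes, and DESeq2 called 0 lower and 2 higher, beside 6.48% and 6.98%.

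Of 23 paralogs and partners of the members (the CCN family, the angiomotins, receptors and ligands named above, and others), 16 passed the filter. In Soft 2 of these were lower and 3 higher with a median of -0.09, near the 14.8% and 15.8% of all genes. At an unadjusted p below 0.05 it was 5 lower and 7 higher in Soft, beside 26.6% and 27.7%, and DESeq2 called 3 lower and 6 higher, beside 17.3% and 17%. In sh_PIP4K2B 2 were lower and 0 higher with a median of -0.19, beside 2.77% and 2.76% of all genes, with 4 lower and 2 higher at an unadjusted p below 0.05 (14.2% and 19% of all genes) and 2 lower and 0 higher in DESeq2 (6.48% and 6.98%). The lists of other targets, pathway genes and partners share LATS2, which is in the first and the second.

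**Figure D5:**
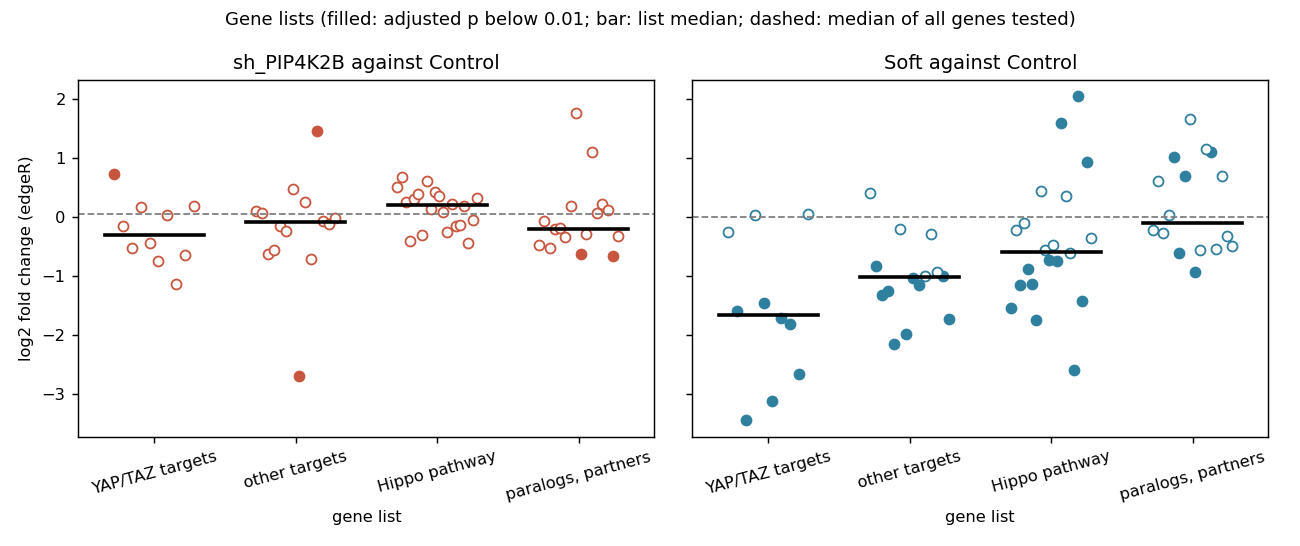
Log2 fold changes (edgeR) of the 10 members, 14 other targets, 20 Hippo pathway genes and the 16 tested paralogs and partners, in sh_PIP4K2B against Control (left) and Soft against Control (right), filled where the adjusted p was below 0.01, with a bar for each list's median and a dashed line for the median of all genes tested. In Soft the medians of the members and of the other targets lie at -1.65 and -1.02, and in sh_PIP4K2B at -0.29 and -0.08.

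Genes with the profile most like that of CTGF, CYR61 and ANKRD1 were found among the 12109 tested genes that averaged 50 counts or more in some condition. The measure was the root mean square difference of log2 CPM over the 9 libraries after centring each gene on its Control mean. Nearest to CTGF were CPED1 (0.103), MARCH4 (0.183) and DKK2 (0.242), and the nearest member was ANKRD1 (0.351). DKK2 was at a mean of only 0.245 CPM in Soft, near the limit of counting, so its place in this order is uncertain. Its fitted log2 fold changes were -3.48 in Soft and -0.37 in sh_PIP4K2B. Nearest to ANKRD1 were CDH10 (0.135), OXTR (0.238) and SERPINB7 (0.246), with CTGF the nearest member. Nearest to CYR61 were DDX21 (0.11), RNA45S5 (0.111) and ASCC3 (0.132), with AMOTL2 the nearest member (0.167). RNA45S5 is a multi-copy ribosomal RNA precursor, and its reads cannot be assigned with certainty. Nothing of shared function or control follows from a like profile over 9 libraries.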

How the data were processed

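RNA of 9 hTERT_RPE1 libraries (3 Control, 3 sh_PIP4K2B, 3 Soft) was prepared with a stranded mRNA kit, and the authors aligned the reads to GRCh38 with STAR. The submitters' processing notes also name Salmon with no role; the tool and annotation that assigned reads to genes, and whether strand was used, are not given in the sources used here, so annotated genes that overlap CTGF, AXL and CRIM1 on the opposite strand, and AMOTL2, AJUBA and DAB2 on the same strand, could share reads with them. The deposited values are estimated counts per gene, not normalised (12.3% were not whole), and were rounded. edgeR 4.0.16 (TMM, filterByExpr, quasi-likelihood F test, all 9 libraries in 1 fit, condition only) gave log2 fold changes, with Benjamini-Hochberg adjustment over all genes tested and a threshold of 0.01. DESeq2 1.42.0, the tool of the authors, was an alternative. The test was checked on simulated data with 200 genes changed in Soft only. Those data gave all conditions the same spread, so the check does not bear on the wider spread between hairpins. No pair of libraries within a condition was identical or within sampling noise. The members, the gene lists and the rule for named genes (the 3 largest called changes per list, nearest profiles) were chosen with earlier results of these data known. Coordinates and transcript lengths come from GENCODE on GRCh38. Alternatives tried were other filters and scalings, a fit of 2 conditions only, a replicate block, DESeq2, other thresholds and leaving out each library.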

Additional observations from a re-analysis of the deposited data

Results flagged for a closer look

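The 7 genes below gave a different response to the gel than to PIP4K2B silencing by the direct test of Soft against sh_PIP4K2B (edgeR adjusted p below the threshold). The log2 differences were -2.93 for ANKRD1, -2.37 for CTGF, -2.01 for F3, -1.74 for CYR61, -1.44 for AMOTL2, -1.02 for CRIM1 and -0.98 for AJUBA, each lower in Soft. Of all genes 15.5% were called lower in that comparison and 14.5% higher. Soft and sh_PIP4K2B differ in substrate and in hairpin at once, and the 3 hairpins differ among themselves.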

How the results depend on the processing

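The members called in sh_PIP4K2B depended most on the settings. The count of 1 became 0 with only the 2 conditions fitted and with a 2-fold minimum added, 3 in DESeq2 and 3 at an adjusted p below 0.05, and 0 to 4 when 1 library was left out (0 without any 1 Control library, 4, 3 and 2 without hairpin #1, #2 and #3). Other targets called there went from 2 to 0 with the 2 conditions only and to 1 to 5 leaving out 1 library, and all genes called from 763 to 5 (2 conditions only), 1996 (DESeq2), 2375 (adjusted p below 0.05), 302 (2-fold minimum) and 66 to 2013 (1 library left out).

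In Soft the 7 members stayed within 6 to 8 over every alternative, and in Soft against sh_PIP4K2B likewise. The background beside them did not stay. With only Control and Soft fitted, 8 members were lower beside 4783 of all genes, against 7 beside 2036 in the main fit. Leaving out 1 library gave 1158 to 3205 of all genes lower in Soft. In Soft against sh_PIP4K2B, 6 were lower beside 1102 with only those 2 conditions fitted, against 7 beside 2137. The members' median in Soft moved from -1.65 to -1.66 with no filter, -1.62 with at least 10 counts in every library, -1.54 with library size scaling, -1.59 with upper-quartile scaling and -1.66 in DESeq2, and lay between -1.66 and -1.63 when 1 library was left out. Library size scaling moved the median of all genes by 0.11, to 0.12, and split the calls in Soft into 1468 lower and 2484 higher, against 2036 and 2181 with TMM. Other targets called in Soft went from 9 to 4 to 11 leaving out 1 library, and all genes from 4217 to 9601 (2 conditions only), 6498 (adjusted p below 0.05), 2242 (2-fold minimum) and 2506 to 6373 (1 library left out). Against sh_PIP4K2B, other targets went from 7 to 4 (2 conditions only), 11 (adjusted p below 0.05) and 4 to 12 (1 library left out), and all genes from 4135 to 2183, 6372, 2131 (2-fold minimum) and 2350 to 5374. The cause of these moves was not tested.

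The fold changes of CYR61 and NT5E changed sign. CYR61 in sh_PIP4K2B was -0.12 without hairpin #1 (0.04 with all, range -0.12 to 0.19). NT5E in sh_PIP4K2B was -0.0116 with the replicate block and -0.47 to 0.63 leaving out 1 library, and in Soft against sh_PIP4K2B 0.0787 with the block and -0.58 to 0.52. The replicate numbers showed no pairing of the libraries by correlation, since same-numbered libraries deviated together with r of -0.12 to 0.04. Such values cannot exclude a shared culture or transduction, least of all beside the spread between hairpins. The replicate block took the genes called in sh_PIP4K2B from 763 to 295 and kept the count of members called at 1, 7 and 7; with it GAS6 (adjusted p = 0.0245) and TYRO3 (0.0282) in sh_PIP4K2B and VGLL3 (-2.53, 0.0136) in Soft did not pass.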
